A study of Mus musculus with 26 samples.

Results

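The 9 mouse genes followed here move cholesterol out of cells, carry it, or handle it inside them, and were measured in lung macrophages after an inflammatory challenge: Abca1, Abcg1, Apoe, Apoc2, Npc1, Npc2, Soat1, Ch25h and Mylip. They were taken by symbol as the rows of a count table whose Ensembl identifiers carry these names in the GENCODE M21 annotation of GRCm38. The list was chosen with earlier results of these data known, so counts of members called are descriptions of a chosen set. All 9 were among the 55487 genes of the table, and 8 of them were among the 17143 genes that passed the filter on low counts. Apoc2 did not pass.

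Macrophages take up cholesterol with lipoproteins, surfactant and dead cells, free it in lysosomes with the help of Npc1 and Npc2, store it as esters made by Soat1, and export it through Abca1 and Abcg1 to acceptors such as the apolipoprotein encoded by Apoe. Oxysterols, among them the product of Ch25h, activate the liver X receptors (LXRs), nuclear receptors whose known targets in mouse macrophages include Abca1, Abcg1, Apoe and Mylip. Resident alveolar macrophages live in surfactant, a lipid film, and mice without Abcg1 are known to build up lipid in these cells.

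The study sequenced RNA of macrophages from mouse lung to compare cells recruited from bone marrow with the resident alveolar cells over time after lipopolysaccharide (LPS), a cell wall component of Gram-negative bacteria, given by a route the design text calls IT. The recruited cells (BM) were taken 1 day (n = 5), 3 days (n = 4) and 7 days (n = 3) after LPS. The resident alveolar macrophages (AM) were taken 1 day (n = 4), 3 days (n = 3) and 7 days (n = 4) after LPS, and on day 0 from lungs of untreated mice (n = 3). Strain, sex, genotype and sorting gates are not given in the sources used here, the only word on age is "Young" in the descriptions of the day 0 libraries, and nothing says that replicates are separate animals, so p-values reflect variation among these libraries alone, part of which may be technical. Libraries are written by group and replicate, as in BM_day7.3.

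Total counts ran from 9176202 to 80816742 per library, with the highest totals in AM day 0. Levels are CPM, counts scaled by library size and TMM factor. Differences are on the log2 scale ± SE, tested with edgeR's quasi-likelihood method, with p-values adjusted by Benjamini-Hochberg over the 17143 genes and a call made at an adjusted p under 0.05. A list of 12 alveolar macrophage markers ranged in sum between 1084 and 4397 CPM in BM libraries of days 1 and 3, against 20141 and 34357 CPM in AM libraries of all days. In BM day 7 the sums were 15856 and 16752 CPM in replicates 1 and 2 but 3153 CPM in BM_day7.3, where Siglecf, the lectin that marks resident cells, stood at 24.1 CPM against 177 CPM in both others. BM_day3.1 had the fewest genes detected, 9126, and a summed fibroblast marker level of 27668 CPM. AM_day3.2 had a summed level of 10 monocyte markers of 2421 CPM, against 908 and 1022 CPM in the other AM day 3 libraries. Names of the AM day 0 libraries share a prefix found nowhere else, as do those of BM day 1. The remaining libraries share 1 prefix followed by a library number in the submitters' sample descriptions, and some results are also given within the numbers up to 24 and from 26. Within the numbers up to 24, AM day 3 is AM_day3.3 alone and BM day 7 is BM_day7.3 alone, so values there that involve either group describe 1 library and no call is read from them. Transcripts of 4 Y-linked genes summed to at most 4.09 CPM in all day 7 libraries but to at least 146 CPM in AM day 0, 1 and 3. They summed to 7.75 to 38.4 CPM in BM day 1, against 191 to 217 CPM in AM day 1, and in BM day 3 to 0.165 and 0.0479 CPM in replicates 1 and 2 and to 167 and 169 CPM in replicates 3 and 4, against 194 to 227 CPM in AM day 3. Xist, an X-linked RNA made in female cells, stood at 280 to 328 CPM in AM day 7. In AM day 1 it stood at 0 CPM and in AM day 3 at 0.45 to 20.8 CPM. AM_day0.1 held both, with 144 CPM of Xist and 146 CPM of Y-linked transcripts. Library prefix cannot be told apart from group in any comparison with AM day 0 or BM day 1. Nor can the Y-linked difference in BM against AM on day 1 or in any comparison of AM day 7 with an earlier AM day. The change in the BM to AM difference between days 3 and 7 takes in such a comparison.

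Recruited and resident macrophages differed in their exporter transcripts. On each day BM cells averaged more Abca1 and less Abcg1 than AM cells, with Abca1 past the threshold at days 1 and 7 and Abcg1 at all 3 days. On days 3 and 7 the largest rise among the members was that of Apoe. Ch25h was at most 12.5 CPM in BM cells on days 1 and 3. At day 1, 1 member rose and 3 fell in BM against AM cells, where 29.0% of all genes tested were called, 15.2% higher and 13.8% lower. At day 3, 1 rose and 2 fell, against 3.98% of all genes called, 0.997% higher and 2.99% lower. At day 7, 2 rose and 1 fell, against 1.77% of all genes called, 1.48% higher and 0.286% lower. The median log2 fold change of the 8 tested members was −0.43, 0.07 and 0.42 at days 1, 3 and 7, beside medians of 0.06, −0.07 and 0.03 over all genes. On day 7 the only BM library in the number range of the AM libraries was BM_day7.3, which gave 2.19 for Abca1, −1.71 for Abcg1 and 5.64 for Apoe, so those day 7 differences have no replicated value within a range.

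In resident cells 5 members were called on day 1 after LPS, 3 on day 3 and none on day 7. Without AM_day0.1 or AM_day0.2 the day 1 count was 2, while that of day 3 was 3 whichever library was left out. Against day 0, Apoe and Npc2 rose and Abca1, Abcg1 and Mylip fell on day 1, where 6.28% of all genes were called, 3.22% higher and 3.06% lower. On day 3 Apoe and Npc2 rose and Abcg1 fell, where 2.51% of all genes were called, 1.78% higher and 0.723% lower. On day 7 no member was called by edgeR, where 0.677% of all genes were called, 0.408% higher and 0.268% lower. At an unadjusted p under 0.05 the day 7 count was 4. No share of all genes is given beside this or later counts at an unadjusted p, so nothing about the members is read from them. DESeq2 called 1 member, Apoe, and 341 genes in all, against 116 genes in edgeR. Fitted on the compared groups alone, edgeR called 4 members, Abca1 and Npc1 lower and Apoe and Npc2 higher, and 2578 genes in all. The median log2 fold change of the members was −0.11, 0.58 and 0.07 at days 1, 3 and 7, beside −0.20, −0.07 and −0.04 over all genes. The 3 contrasts share their day 0 libraries.

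**Figure D1:**
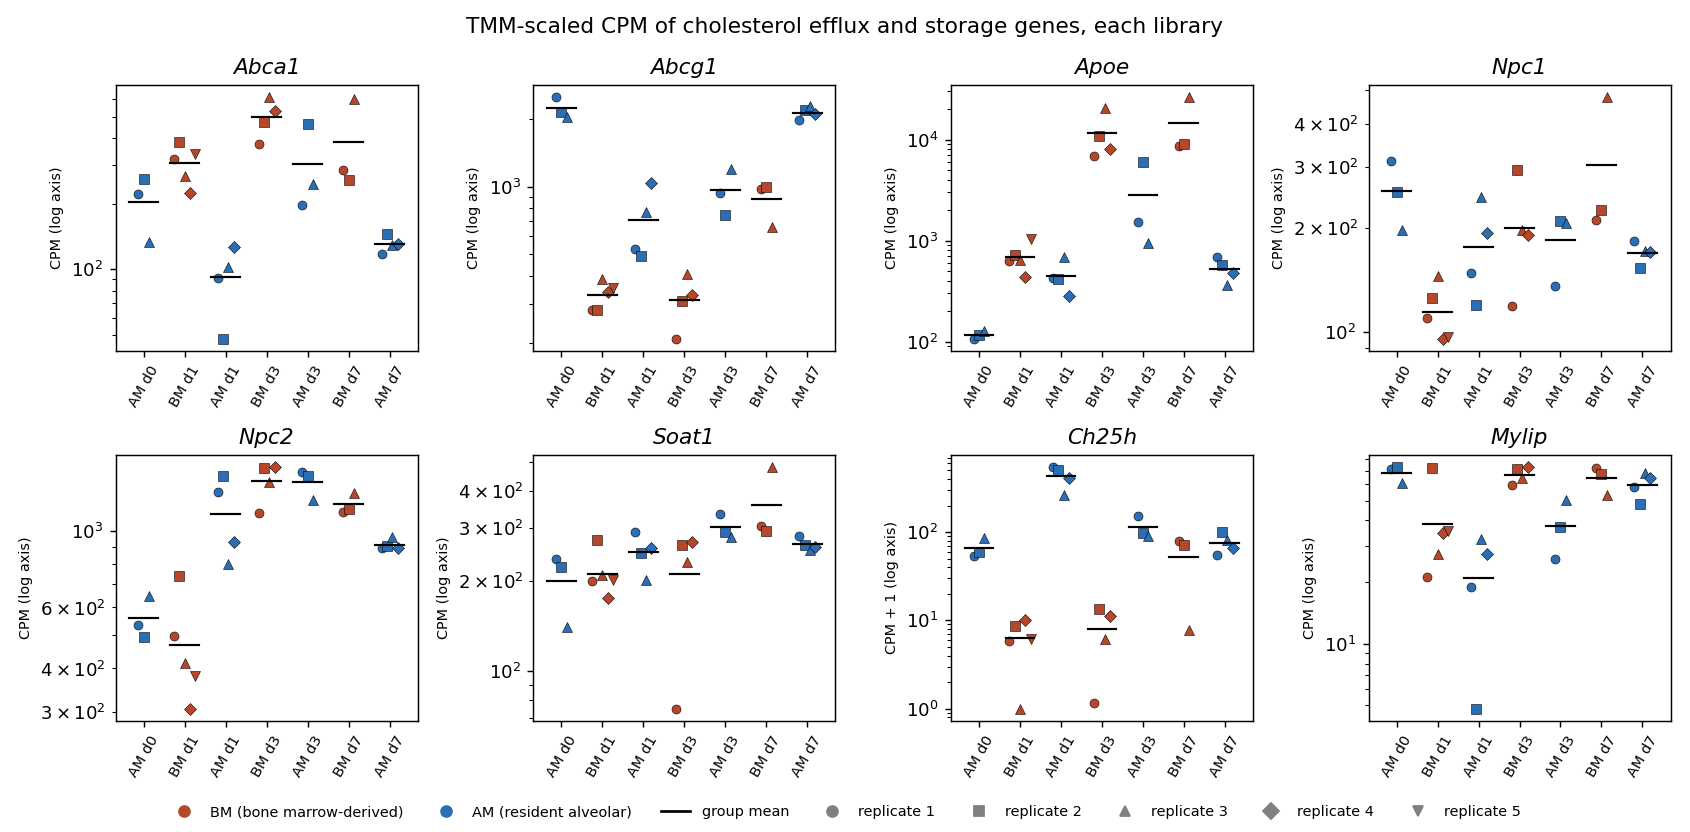
Level of each of the 8 tested genes in every library, in TMM-scaled CPM on a log axis (CPM + 1 for Ch25h), with BM groups left of the AM group of the same day and a line at each group mean. Abcg1 is highest in AM day 0 and AM day 7, Apoe in BM days 3 and 7, and Ch25h in AM day 1.

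Abca1 (ENSMUSG00000015243, chr4:53030787-53159895, minus strand) encodes the transporter that loads cholesterol and phospholipid onto lipid-poor apolipoproteins. Its promoter window is shown because Abca1 was the exporter with more RNA in recruited cells. Windows here run from 250 bases before to 50 bases after a transcript start and come from RefSeq on GRCm38.p6; 7 of the 9 members had one. Capitals mark matches, on either strand, to the E-box (CACGTG), to the TATA box, whose letters are TATAAA, or to the GC box, which reads GGGCGG.
Abca1, chr4:53159846-53160145, minus strand: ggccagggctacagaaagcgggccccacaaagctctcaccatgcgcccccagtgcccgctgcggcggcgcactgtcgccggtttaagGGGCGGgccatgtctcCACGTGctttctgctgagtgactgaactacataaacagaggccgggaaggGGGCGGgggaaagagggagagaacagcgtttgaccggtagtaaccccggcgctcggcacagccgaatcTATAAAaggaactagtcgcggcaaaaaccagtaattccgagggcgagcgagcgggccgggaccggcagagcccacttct
Counted from the start, the E-box match lay at −147 to −142 and the TATA match at −29 to −24. Of 32851 mouse windows, 7.15% held the E-box, 13.6% the TATA box and 35.7% the GC box.

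In BM cells Abca1 stood at 319, 383, 267, 223 and 338 CPM on day 1, at 373, 475, 615 and 529 CPM on day 3 and at 286, 257 and 600 CPM on day 7. In AM cells it stood at 221, 258 and 133 CPM on day 0, at 91.0, 48.2, 103 and 127 CPM on day 1, at 198, 465 and 246 CPM on day 3 and at 118, 145, 129 and 130 CPM on day 7. Every BM library lay above every AM library of the same day on days 1 and 7, while on day 3 AM_day3.2 lay inside the BM range. Abca1 averaged 306 ± 62.2 CPM in BM and 92.2 ± 32.8 CPM in AM on day 1 (SD, n = 5 and 4), a 3.32-fold rise (1.73 ± 0.29, edgeR adjusted p = 5.1e-05). The day 7 difference was 1.55 ± 0.31 (edgeR adjusted p = 0.0043), and without BM_day7.3, whose 600 CPM was the highest of its group, it was 1.05 ± 0.31 and no longer called (edgeR adjusted p = 0.15). On day 3 the difference of 0.71 ± 0.32 did not pass (edgeR adjusted p = 0.19). In bulk RNA a higher share of cells with the transcript and more transcript per cell cannot be told apart.

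In AM cells Abca1 fell on day 1 against day 0 (−1.14 ± 0.31, edgeR adjusted p = 0.024), rose on day 3 against day 1 (1.72 ± 0.32, edgeR adjusted p = 0.0047) and fell again on day 7 against day 3 (−1.22 ± 0.31, edgeR adjusted p = 0.041). The 3 calls were lost when single libraries were left out. Without AM_day3.2, Abca1 differed by 1.27 between AM days 3 and 1 (edgeR adjusted p = 0.12) and by −0.76 between AM days 7 and 3 (edgeR adjusted p = 0.84). The day 1 fall was lost without AM_day0.1 (edgeR adjusted p = 0.11), AM_day0.2 (0.17), AM_day1.1 (0.053) or AM_day1.2 (0.1). The fall on day 7 against day 3 was also lost without AM_day0.1, AM_day1.1, AM_day1.3, AM_day3.3, any AM day 7 library, BM_day1.1, BM_day3.2 or BM_day3.4 (edgeR adjusted p = 0.052 to 0.15). With Y-linked level as a covariate that fall was −1.11 and not called (edgeR adjusted p = 0.4). For AM day 3 against day 1, libraries numbered from 26 gave 2.25, not called (edgeR adjusted p = 0.071), and AM_day3.3 alone gave 1.10 against the AM day 1 libraries numbered up to 24. In BM cells Abca1 differed by 0.70 ± 0.27 between days 3 and 1 and was not called (edgeR adjusted p = 0.059).

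Abcg1 (ENSMUSG00000024030, chr17:31057675-31117988, plus strand) encodes the transporter that passes cholesterol to high-density lipoprotein. In BM cells it stood at 281, 282, 386, 339 and 353 CPM on day 1, at 209, 307, 405 and 328 CPM on day 3 and at 978, 995 and 661 CPM on day 7. AM cells held 2513, 2148 and 2044 CPM on day 0, 528, 490, 769 and 1038 CPM on day 1, 940, 745 and 1197 CPM on day 3 and 1974, 2192, 2286 and 2105 CPM on day 7. The BM and AM ranges did not overlap on any day. AM days 0 and 7 formed a high range of their own, apart from all other groups.

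BM cells held less Abcg1 than AM cells by −1.11 ± 0.20 on day 1, −1.62 ± 0.23 on day 3 and −1.28 ± 0.24 on day 7 (edgeR adjusted p = 0.00012, 0.00013 and 0.0014). At day 3 the libraries numbered from 26 gave −1.21 and were called (edgeR adjusted p = 0.024), and the BM libraries numbered up to 24 gave −2.19 against AM_day3.3 alone. In resident cells Abcg1 fell on day 1 to 706 ± 253 CPM, against 2235 ± 246 CPM on day 0 (SD, n = 4 and 3), which is 31.6% of the day 0 level (−1.66 ± 0.23, edgeR adjusted p = 1.4e-05). On day 3 it was still lower than on day 0 (−1.22 ± 0.25, edgeR adjusted p = 0.0031). By day 7 it had risen against day 3 (1.15 ± 0.23, edgeR adjusted p = 0.0051) and differed from day 0 by −0.06 ± 0.23, with an interval of 2 SE from −0.52 to 0.39. The rise on day 7 was not called without AM_day3.2 (1.01, edgeR adjusted p = 0.093). In BM cells Abcg1 rose on day 7 against day 3 (1.49 ± 0.23, edgeR adjusted p = 0.00028), where it was the 1 member called and 3.98% of all genes were called, 3.09% higher and 0.898% lower. That rise was 1.42 within the numbers from 26 (edgeR adjusted p = 0.0095) and 1.34 for BM_day7.3 alone against the BM day 3 libraries numbered up to 24. BM_day7.3, the library with the lowest alveolar marker sum of its group, also had the lowest Abcg1 of it, and without this library the rise was 1.66 ± 0.24 (edgeR adjusted p = 0.00014).

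Apoe (ENSMUSG00000002985, chr7:19696109-19699188, minus strand) encodes a secreted apolipoprotein that accepts exported cholesterol and binds receptors of the LDL receptor family. Its range was the widest of the members, 247-fold between the lowest and highest library. In BM cells it stood at 625, 712, 647, 439 and 1045 CPM on day 1, at 6824, 10842, 20736 and 8030 CPM on day 3 and at 8700, 8958 and 26338 CPM on day 7. In AM cells it stood at 107, 115 and 126 CPM on day 0, at 423, 413, 683 and 283 CPM on day 1, at 1527, 6035 and 949 CPM on day 3 and at 690, 574, 360 and 474 CPM on day 7. Every BM library of days 3 and 7 lay above every AM library of any day. In the highest library, BM_day7.3, Apoe made up 2.63% of the scaled counts, against 0.0107% in AM_day0.1.

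**Figure D2:**
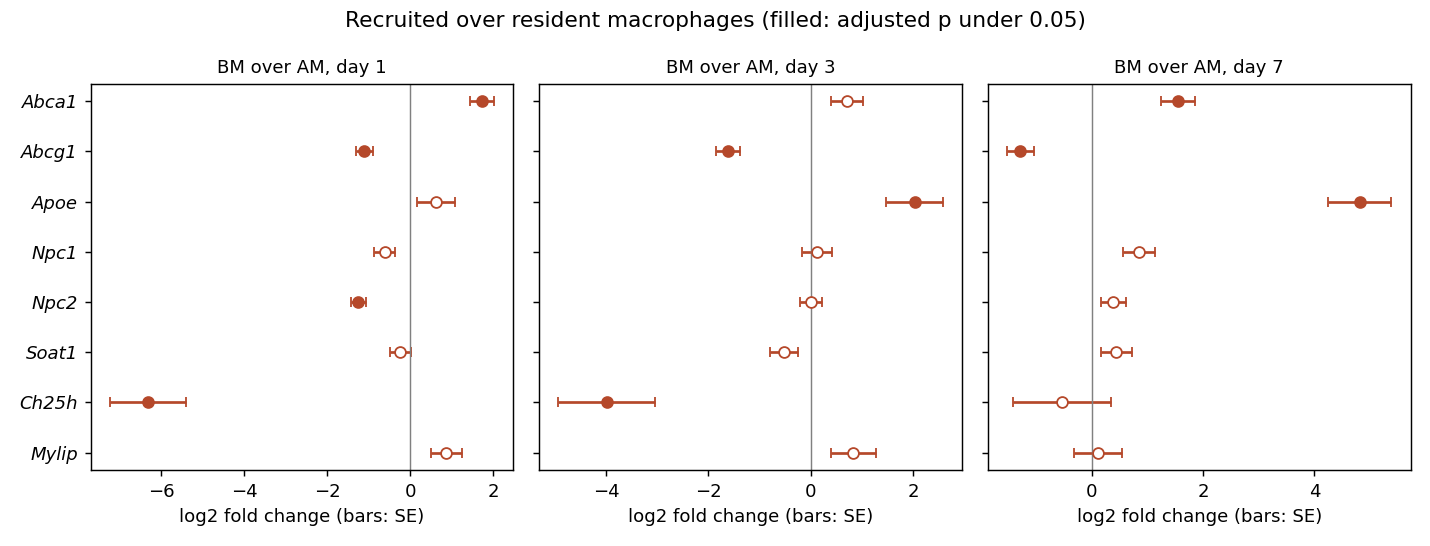
Log2 fold change of each tested gene in BM over AM cells on days 1, 3 and 7, with bars of 1 SE and filled points where the adjusted p is under 0.05. Abcg1 lies left of 0 and Abca1 right of it on every day, and the Apoe difference is 0.62 on day 1, 2.03 on day 3 and 4.81 on day 7.

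On day 1 the BM and AM ranges of Apoe overlapped and the difference of 0.62 ± 0.46 was not called (edgeR adjusted p = 0.33). On day 7 Apoe averaged 14665 ± 10109 CPM in BM and 524 ± 141 CPM in AM cells (SD, n = 3 and 4), a 28-fold rise (4.81 ± 0.57, edgeR adjusted p = 1.6e-05). Without BM_day7.3 the day 7 rise was 4.07 ± 0.54 (edgeR adjusted p = 0.00015). On day 3 it was 2.03 ± 0.55, close to the threshold (edgeR adjusted p = 0.041), and 18 of 40 alternative settings ended that call, among them leaving out AM_day3.1 (1.74), AM_day3.3 (1.62), BM_day3.2 (2.04), BM_day3.3 (1.57), any AM day 0 library, AM_day7.1, AM_day7.2, AM_day7.4, BM_day7.1 or BM_day7.2 (edgeR adjusted p = 0.05 to 0.19). Libraries numbered from 26 gave 1.92, not called (edgeR adjusted p = 0.2), and the BM libraries numbered up to 24 gave 3.24 against AM_day3.3 alone, the AM day 3 library with the least Apoe. With Y-linked level as a covariate the day 3 difference was 2.23 (edgeR adjusted p = 0.066). Without AM_day3.2 the day 3 rise was 3.23 ± 0.55 (edgeR adjusted p = 0.0027). The change in the BM to AM difference between days 3 and 7 (an interaction term) was 2.77 ± 0.73 in edgeR and missed the threshold (adjusted p = 0.12), while DESeq2 called it (adjusted p = 0.0073). No member was called by edgeR for this term, with 3 at an unadjusted p under 0.05, where 0.362% of all genes were called, 0.338% higher and 0.0233% lower. Without AM_day3.2 the Apoe term was 1.57 (edgeR adjusted p = 0.37), and that between days 1 and 3 was 2.63 and called (edgeR adjusted p = 0.016), against 1.41 with all libraries (edgeR adjusted p = 0.22).

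Within BM cells Apoe rose 16.7-fold on day 3 against day 1 (4.06 ± 0.49, edgeR adjusted p = 4.8e-06), where 3 members rose, none fell and 25.9% of all genes were called, 10.6% higher and 15.2% lower. Between BM days 7 and 3 it differed by 0.34 ± 0.51 (edgeR adjusted p = 0.83), and by −0.39 without BM_day7.3. Within AM cells it rose on day 1 against day 0 (1.96 ± 0.55, edgeR adjusted p = 0.035) and on day 3 against day 0 (4.62 ± 0.64, edgeR adjusted p = 8.2e-05). The day 1 rise was lost on leaving out any of the 3 day 0 libraries (edgeR adjusted p = 0.11 to 0.16), AM_day1.1 (0.057), AM_day1.2 (0.059) or AM_day1.3 (0.079). The day 3 rise was 3.42 ± 0.50 without AM_day3.2 (edgeR adjusted p = 0.00026). Against day 1, AM day 3 differed by 2.66 ± 0.53 (edgeR adjusted p = 0.014), where 2 members rose and 0.834% of all genes were called, 0.624% higher and 0.210% lower, but by 1.46 without AM_day3.2 (edgeR adjusted p = 0.34). That call was also lost without AM_day1.1, AM_day1.2 or AM_day1.4 (edgeR adjusted p = 0.058, 0.059 and 0.05). AM day 7 lay below AM day 3 by −2.44 ± 0.52 (edgeR adjusted p = 0.014). In that comparison 1 member rose, 2 fell and 1.59% of all genes were called, 0.233% higher and 1.35% lower. The Apoe fall was −1.23 without AM_day3.2 (edgeR adjusted p = 0.58), and its call was lost as well without AM_day7.3 or AM_day7.4 (edgeR adjusted p = 0.071 and 0.06). Y-linked level as a covariate also ended it (−2.04, edgeR adjusted p = 0.33). So did number range as a term (−2.35, edgeR adjusted p = 0.098) and the compared groups alone (−2.45, edgeR adjusted p = 0.083). On day 7 Apoe in AM cells still averaged 524 CPM, against 116 CPM on day 0, with no overlap between the groups (2.18 ± 0.56), but edgeR did not call it (adjusted p = 0.097), whereas DESeq2 did (adjusted p = 0.0013), as did edgeR without AM_day3.2 (2.19, adjusted p = 0.018).

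The complement genes C1qa, C1qb and C1qc, markers of monocyte-derived and interstitial macrophages, were read beside Apoe. AM_day3.2, the AM library with the most Apoe, had 370 CPM of C1qa, against 103 and 110 CPM in the other AM day 3 libraries, and 1189 CPM of the monocyte antigen gene Ly6c2, against 339 and 430 CPM. C1qa stood at 498 to 1990 CPM in BM day 3 and at 625 to 807 CPM in BM day 7, against 2.19 to 5.99 CPM in AM day 0. In BM day 1 it stood at 195 to 352 CPM while Apoe stayed at 439 to 1045 CPM. The list of 10 monocyte markers ranged in sum between 2685 and 4276 CPM in BM day 3, against 908 and 2421 CPM in AM day 3, and between 1168 and 1229 CPM in BM day 7, against 167 and 230 CPM in AM day 7. Their part in the Apoe differences was not tested.

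**Figure D3:**
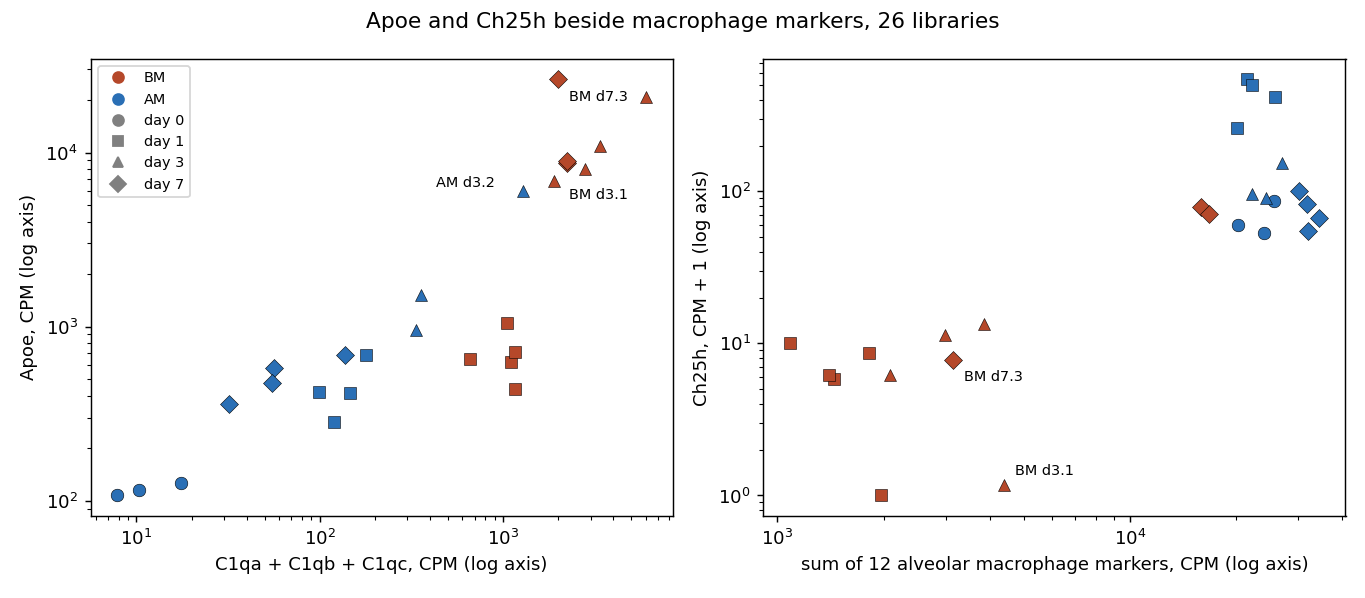
Left, Apoe against the summed level of C1qa, C1qb and C1qc in each of the 26 libraries, both in CPM on log axes; right, Ch25h (CPM + 1) against the summed level of 12 alveolar macrophage markers. AM_day3.2 lies beside the BM day 3 libraries on the left, and BM_day7.3 lies among the BM day 3 libraries on the right.

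Apoc2 (ENSMUSG00000002992, chr7:19671579-19677941, minus strand) encodes the cofactor that lipoprotein lipase needs, and lies in the same cluster as Apoe. It had 37 counts in all: 3 in BM_day1.1, 16 in BM_day1.2, 4 in BM_day7.2 and 14 in AM_day1.4. The other 22 libraries had 0, where a count of 0 allows a level of up to 0.0352 to 0.312 CPM by library. In the annotation, 79.5% of its exon bases are shared on the same strand with the gene model Gm44805, which had 0 counts in every library, and how the counting treated reads on both models is not given in the sources used here. Of its other neighbours, Apoc1 was low throughout, at most 33.3 CPM, and was called in none of the 12 comparisons, and Apoc4 had 96 counts in all. Tomm40, which encodes a mitochondrial import pore and borders Apoe, was lower in BM than in AM cells on day 1 (−1.28 ± 0.26, edgeR adjusted p = 0.00058) and differed by 0.02 ± 0.30 on day 3 and −0.17 ± 0.30 on day 7, days on which Apoe was higher in BM cells.

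Npc2 (ENSMUSG00000021242, chr12:84754562-84773152, minus strand) encodes the soluble lysosomal protein that binds freed cholesterol and hands it to Npc1. In BM cells it stood at 496, 739, 414, 306 and 381 CPM on day 1, at 1124, 1515, 1384 and 1526 CPM on day 3 and at 1132, 1157 and 1288 CPM on day 7. The AM values were 535, 494 and 649 CPM on day 0, 1291, 1434, 801 and 929 CPM on day 1, 1481, 1436 and 1224 CPM on day 3 and 890, 904, 957 and 890 CPM on day 7. BM day 1 lay wholly below AM day 1, the day 3 ranges overlapped, and BM day 7 lay wholly above AM day 7.

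Npc2 fell in BM against AM cells on day 1 to 42.0% of the AM level (−1.25 ± 0.19, edgeR adjusted p = 1.3e-05). On day 3 the difference was 0.01 ± 0.22 (edgeR adjusted p = 1) and on day 7 it was 0.39 ± 0.22 (edgeR adjusted p = 0.76). Npc2 was the 1 member whose BM to AM difference changed between days 1 and 3 (interaction of 1.26 ± 0.29, edgeR adjusted p = 0.0066), where 11.5% of all genes were called, 3.52% higher and 8.02% lower. It rose in BM cells on day 3 against day 1 (1.57 ± 0.19, edgeR adjusted p = 1.3e-06). In AM cells it had risen by day 1 against day 0 (0.99 ± 0.22, edgeR adjusted p = 0.0046) and on day 3 stood 2.47-fold above day 0 (edgeR adjusted p = 0.00082). On day 7 it averaged 910 ± 31.9 CPM in AM cells, against 559 ± 80.1 CPM on day 0 (SD, n = 4 and 3), with no overlap, but was not called (0.70 ± 0.22, edgeR adjusted p = 0.25). With the compared groups alone it was called (0.71 ± 0.11, edgeR adjusted p = 0.0018).

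Npc1 (ENSMUSG00000024413, chr18:12189692-12236400, minus strand) encodes the membrane protein that moves cholesterol out of late endosomes and lysosomes. In BM cells it stood at 110, 126, 145, 95.9 and 97.0 CPM on day 1, at 119, 294, 197 and 191 CPM on day 3 and at 211, 226 and 478 CPM on day 7. Levels in AM cells were 313, 255 and 198 CPM on day 0, 148, 120, 246 and 193 CPM on day 1, 136, 210 and 207 CPM on day 3 and 183, 153, 172 and 171 CPM on day 7. The BM and AM ranges overlapped on days 1 and 3, and BM day 7 lay wholly above AM day 7. Its 1 call was a rise in BM cells on day 3 against day 1 (0.81 ± 0.25, edgeR adjusted p = 0.023), although these ranges overlapped, and the call was lost without BM_day1.4 (0.052), BM_day1.5 (0.054) or BM_day3.2 (0.11). Between BM and AM cells Npc1 differed by −0.62 ± 0.25, 0.12 ± 0.29 and 0.85 ± 0.29 on days 1, 3 and 7, none of them called by edgeR (adjusted p = 0.062, 0.94 and 0.2). The day 1 difference was called without AM_day1.2, BM_day3.1, BM_day3.2 or BM_day7.3 (edgeR adjusted p = 0.031 to 0.046). Without BM_day7.3, which held 478 CPM, the day 7 difference was 0.36 ± 0.29. On the opposite strand Npc1 shares 4.52% of its exon bases with Rmc1, and the strand setting of the counting is not given in the sources used here.

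Soat1 (ENSMUSG00000026600, chr1:156424525-156474331, minus strand) encodes the enzyme that joins cholesterol to fatty acids for storage in droplets. In BM cells it stood at 200, 273, 209, 175 and 201 CPM on day 1, at 74.9, 264, 232 and 270 CPM on day 3 and at 304, 293 and 479 CPM on day 7. Resident cells had 237, 223 and 140 CPM on day 0, 291, 248, 201 and 258 CPM on day 1, 334, 290 and 280 CPM on day 3 and 282, 263, 254 and 260 CPM on day 7. The lowest value came from BM_day3.1 and the highest from BM_day7.3, and the BM and AM ranges overlapped on day 1 alone, with BM lower on day 3 and higher on day 7. Soat1 was called in none of the 12 comparisons by edgeR, with 2 at an unadjusted p under 0.05. These were BM day 7 against BM day 3 (0.77 ± 0.28) and the change in the BM to AM difference between days 3 and 7 (0.96 ± 0.39). Its intervals of 2 SE for BM against AM ran from −0.73 to 0.25 on day 1, from −1.08 to 0.04 on day 3 and from −0.12 to 0.99 on day 7 on the log2 scale.

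Ch25h (ENSMUSG00000050370, chr19:34473778-34475164, minus strand) encodes cholesterol 25-hydroxylase, which makes 25-hydroxycholesterol and is known to be induced by LPS and interferon in mouse macrophages. Its promoter window is printed because Ch25h had the largest difference of the members between the cell types on day 1, and that of Apoe because Apoe had the largest on day 7. Capitals mark TATAAA and, at −48 to −39 from the start of Ch25h, a pattern for NF-kB (GGGA, then 4 bases of any kind, then CC) that 20.7% of all windows held.
Ch25h, chr19:34475099-34475398, minus strand: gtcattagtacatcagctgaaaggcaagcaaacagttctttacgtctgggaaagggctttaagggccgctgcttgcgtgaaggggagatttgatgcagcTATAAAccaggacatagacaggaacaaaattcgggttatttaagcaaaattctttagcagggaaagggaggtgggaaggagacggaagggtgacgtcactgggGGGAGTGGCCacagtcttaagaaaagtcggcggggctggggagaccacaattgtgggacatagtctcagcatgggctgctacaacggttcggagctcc
Apoe, chr7:19699139-19699438, minus strand: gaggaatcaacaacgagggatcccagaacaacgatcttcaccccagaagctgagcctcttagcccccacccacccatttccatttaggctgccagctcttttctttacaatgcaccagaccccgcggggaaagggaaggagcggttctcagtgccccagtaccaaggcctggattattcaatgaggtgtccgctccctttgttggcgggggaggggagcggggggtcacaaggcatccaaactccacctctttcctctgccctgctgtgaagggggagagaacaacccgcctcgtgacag
Apoe had 3 windows in RefSeq. The one printed, at the start of the annotated gene, held no match to any of the 7 patterns searched, while another (chr7:19698572-19698871) held TATAAA at −96 to −91 and, on the opposite strand, at −100 to −95, and the NF-kB pattern at −120 to −111. Besides the E-box, TATA, GC box and NF-kB patterns these were TGANTCA (AP-1), the ISRE (GAAA, 2 bases of any kind, GAAA) and DR4, the direct repeat to which LXR binds (AGGTNA, then 4 bases of any kind, then NGGTNA). The DR4 pattern matched 0.222% of all windows and no member's window, the AP-1 pattern 7.81% of all windows and the ISRE 3.44%. As searched, the DR4 pattern had to begin with A. The stretch tgaccggtagtaaccc of the Abca1 window, read on its opposite strand, departs from it in that first letter alone. Looser repeats were not searched, so a window without a match may still hold a site for LXR.

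In BM cells Ch25h stood at 4.81, 7.70, 0, 9.07 and 5.20 CPM on day 1, at 0.165, 12.5, 5.22 and 10.3 CPM on day 3 and at 77.5, 70.3 and 6.80 CPM on day 7. AM cells had 52.3, 59.0 and 85.6 CPM on day 0, 544, 500, 261 and 413 CPM on day 1, 153, 95.6 and 88.7 CPM on day 3 and 53.5, 100, 80.9 and 66.0 CPM on day 7. BM days 1 and 3 lay far below every AM library, while BM_day7.1 and BM_day7.2 lay inside the AM day 7 range and BM_day7.3 did not. In BM_day1.3 a count of 0 allows a level of up to 0.214 CPM.

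On day 1 Ch25h averaged 5.36 ± 3.48 CPM in BM and 429 ± 125 CPM in AM cells (SD, n = 5 and 4), which is 1.25% of the AM level (−6.32 ± 0.92, edgeR adjusted p = 2.2e-05). On day 3 the difference was −3.99 ± 0.94 (edgeR adjusted p = 0.02), and this call was lost without AM_day3.1 (0.083), AM_day3.3 (0.055) or BM_day3.3 (0.058). Without BM_day3.1, the library with the least Ch25h of its group, it was −3.60 (edgeR adjusted p = 0.022). Library numbers from 26 gave −4.02 and were called (edgeR adjusted p = 0.0056), and the BM libraries up to 24 gave −3.77 against AM_day3.3 alone. A covariate for the Y-linked level also gave −3.77, which was not called (edgeR adjusted p = 0.13). On day 7 it was −0.54 ± 0.88 with an interval of 2 SE from −2.30 to 1.22 (edgeR adjusted p = 1), and −0.03 without BM_day7.3. The difference between BM days 7 and 3 was 2.86 ± 0.90 and was not called by edgeR (adjusted p = 0.079), while DESeq2 called it (adjusted p = 0.016), as did edgeR without BM_day1.3 (2.86, adjusted p = 0.02). It was 3.25 and called within the library numbers from 26 (edgeR adjusted p = 0.0071), and 0.07 within those up to 24, where BM_day7.3 was the only BM day 7 library. In AM cells every day 1 library lay above every library of days 0, 3 and 7. The mean on day 1 was 6.54 times that of day 0 (2.71 ± 0.96), not called by edgeR with all libraries in the fit (adjusted p = 0.1), but called by DESeq2 (adjusted p = 0.015) and by edgeR when BM_day1.3 and BM_day3.1, the BM libraries with the least Ch25h, were left out (2.70 ± 0.55, adjusted p = 0.0022). Ch25h moved with the alveolar marker sum in BM day 7, where BM_day7.3 was low in both, and that part of the difference was not tested. It shares 11.5% of its exon bases with Gm26902 on the opposite strand.

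Mylip (ENSMUSG00000038175, chr13:45389742-45412022, plus strand) encodes a ubiquitin ligase that marks the LDL receptor for degradation. In BM cells it stood at 21.2, 72.4, 27.5, 34.9 and 35.5 CPM on day 1, at 59.7, 71.1, 64.7 and 72.8 CPM on day 3 and at 71.9, 67.8 and 53.0 CPM on day 7. In the AM libraries it was 71.0, 72.9 and 61.3 CPM on day 0, 18.9, 4.81, 32.6 and 27.5 CPM on day 1, 25.8, 37.2 and 50.2 CPM on day 3 and 58.1, 48.2, 68.0 and 64.5 CPM on day 7. AM day 1 lay wholly below AM day 0, with AM_day1.2 lowest, and the BM and AM ranges were apart on day 3 alone. Mylip fell in AM cells on day 1 to 30.6% of the day 0 level (−1.71 ± 0.43, edgeR adjusted p = 0.013), a call lost without AM_day0.1 or AM_day0.2 (edgeR adjusted p = 0.056 for both). On day 3 it differed from day 0 by −0.86 ± 0.46 (edgeR adjusted p = 0.54) and on day 7 by −0.20 ± 0.43 (edgeR adjusted p = 1). Between BM and AM cells Mylip differed by 0.87 ± 0.38, 0.83 ± 0.44 and 0.11 ± 0.43 on days 1, 3 and 7, with no call by edgeR (adjusted p = 0.086, 0.27 and 1). The day 1 difference was called without AM_day1.3, BM_day1.1 or BM_day1.3 (edgeR adjusted p = 0.043 to 0.047).

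**Figure D4:**
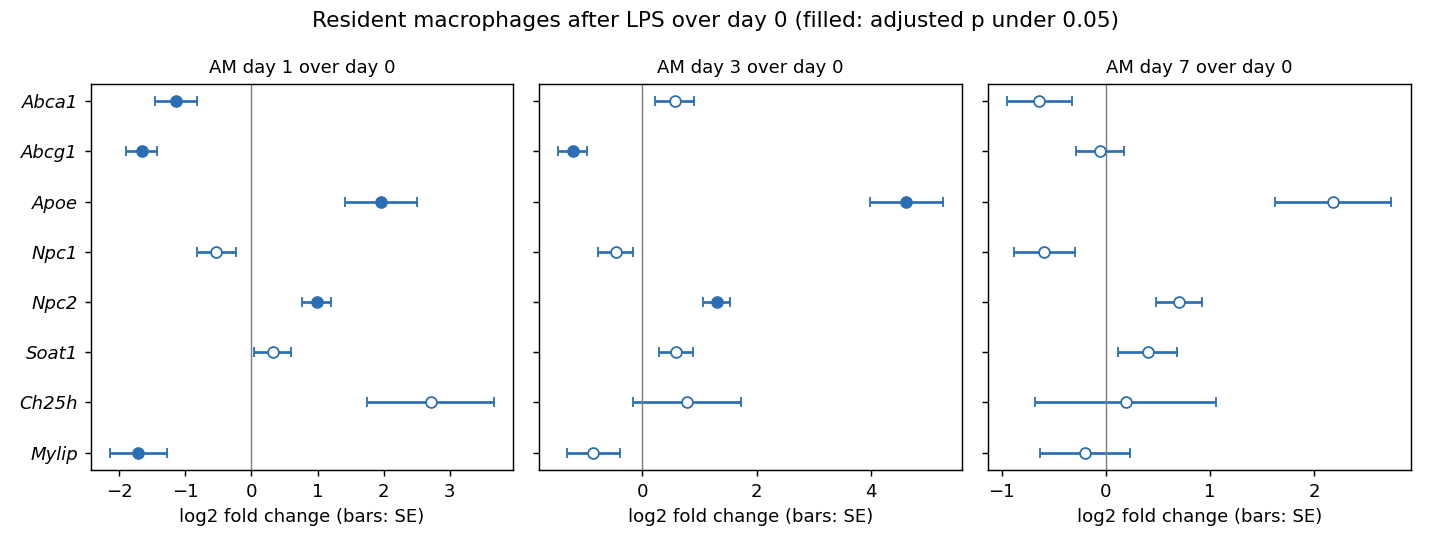
Log2 fold change of each tested gene in AM cells on days 1, 3 and 7 after LPS over day 0, with bars of 1 SE and filled points where the adjusted p is under 0.05. Abcg1 is lower on days 1 and 3 and within 1 SE of 0 on day 7, and Apoe is above 0 on every day.

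Levels were also divided by the joined length of all annotated exons of a gene, 7298 bases for Abcg1, 5438 for Npc2 and 2138 for Apoe. This length can exceed that of the transcripts in use, so the order of genes per transcript may differ. By this measure Abcg1 led the members in AM day 0 at 306 ± 33.8 CPM per kilobase, followed by Npc2 at 103 ± 14.7 and Apoe at 54.1 ± 4.40 (SD, n = 3). In BM day 7 Apoe led at 6859 ± 4728 CPM per kilobase, followed by Npc2 at 219 ± 15.4 and Abcg1 at 120 ± 25.8 (SD, n = 3). In the order of the 7 group means, neighbouring groups were apart for Apoe between BM day 3 and AM day 3 and between AM day 1 and AM day 0. For Abcg1 they were apart between AM day 7 and AM day 3 and between AM day 1 and BM day 1, for Ch25h between AM day 1 and AM day 3, for Npc1 between AM day 7 and BM day 1 and for Npc2 between AM day 7 and AM day 0. All other neighbours in these orders overlapped, as did all neighbours for Abca1, Soat1 and Mylip.

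Over the 26 libraries, the genes whose log2 level followed each member most closely were sought among 9601 genes. The correlations are descriptions over libraries that share group and depth. For Abca1 it was Rere (Pearson r = 0.890), for Abcg1 the serotonin transporter gene Slc6a4 (0.963), for Apoe the serine carboxypeptidase gene Scpep1 (0.908) and for Npc1 the lysosomal protease gene Ctsa (0.801). For Npc2 it was the Fc receptor gene Fcgr3 (0.934), for Soat1 the glycosyltransferase gene Galnt7 (0.872), for Ch25h the carbonic anhydrase gene Car4 (0.960) and for Mylip Rcbtb2 (0.893). Between members, r ran highest between Abca1 and Apoe (0.68) and lowest between Abca1 and Ch25h (−0.71), while Abca1 and Abcg1, both LXR targets, had −0.46.

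Other genes of the pathway were counted in 7 lists, each read beside the shares of all genes called that are given above. The median log2 fold change of these lists in BM against AM cells on day 1 ran from −3.20 (apolipoproteins) to 1.85 (oxysterol enzymes and receptor), beside 0.06 over all genes. Both of these lists hold genes of low count, and no shift of a list is read from their medians. Their most abundant genes averaged 7.21 CPM (Apoc1) and 27.9 CPM (Cyp27a1) over all libraries. Of 18 tested LXR and sterol regulators, 7 rose and 5 fell in BM against AM cells on day 1. Arl4c, a known LXR target encoding a small GTPase, was higher in BM cells on day 1 (3.35 ± 0.37, edgeR adjusted p = 1.3e-07) and day 7 (2.52 ± 0.38, edgeR adjusted p = 0.00013). Pparg, the nuclear receptor needed for alveolar macrophage identity, was lower in BM cells on day 1 (−1.59 ± 0.30, edgeR adjusted p = 0.00022) and day 3 (−2.51 ± 0.35, edgeR adjusted p = 0.0001). In AM cells none of the list rose and 4 fell on day 1 against day 0, among them Rxra, the partner receptor of LXR (−1.36 ± 0.22, edgeR adjusted p = 0.00016), and the coactivator gene Ncoa1 (−1.60 ± 0.25, edgeR adjusted p = 8.4e-05). On day 3, 4 were again lower than on day 0, and on day 7 none was called by edgeR, with 6 at an unadjusted p under 0.05.

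Of 15 other transporters and efflux partners, 3 rose and 1 fell in BM against AM cells on day 1. Abca7, a transporter close to Abca1, averaged 334 CPM in BM and 83.8 CPM in AM cells (1.99 ± 0.22, edgeR adjusted p = 1.1e-07), and Cav1, the caveolar coat gene, 7.24 CPM in BM and 245 CPM in AM cells (−5.08 ± 0.44, edgeR adjusted p = 4.5e-09). In AM cells on day 1 against day 0, 1 of them rose and 3 fell, with Pltp, the phospholipid transfer protein, at −1.73 ± 0.46 (edgeR adjusted p = 0.022). Of 8 tested apolipoprotein genes other than Apoe and Apoc2, 1 fell in BM cells on day 1, Apoh, a plasma apolipoprotein made by the liver and named here after its value was seen, and none was called in any other comparison by edgeR, with 0 to 4 at an unadjusted p under 0.05. In AM day 1, 4 hepatocyte markers summed to 284 and 302 CPM in replicates 1 and 4, against 4.65 and 0 CPM in replicates 2 and 3, and their part in the apolipoprotein values was not tested.

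Of 25 genes of lysosomal and cytosolic sterol handling, 2 rose and 7 fell in BM against AM cells on day 1. The lipase gene Lipe was among the risers, at 51.1 CPM in BM and 13.5 CPM in AM cells (1.93 ± 0.42, edgeR adjusted p = 0.00098). Plin2, a coat protein of lipid droplets, averaged 765 CPM in BM and 2248 CPM in AM cells (−1.56 ± 0.29, edgeR adjusted p = 0.00027). Nceh1, which hydrolyses cholesterol esters and so acts against Soat1, was lower in BM cells on day 1 (−1.50 ± 0.26, edgeR adjusted p = 9.3e-05) and day 3 (−1.43 ± 0.30, edgeR adjusted p = 0.0067). It was also lower in AM cells on day 1 than on day 0, at 196 CPM against 653 CPM (−1.74 ± 0.30, edgeR adjusted p = 0.00031). Tspo, also of this list, was higher in AM cells than on day 0 on day 1 (1.99 ± 0.36, edgeR adjusted p = 0.00046) and day 3 (2.18 ± 0.37, edgeR adjusted p = 0.00045). In BM cells 6 of the 25 rose and 1 fell on day 3 against day 1.

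Of 20 cholesterol synthesis genes, none rose and 8 fell in BM against AM cells on day 1, and none rose and 2 fell on day 3. The median log2 fold change of the 20 was −1.32 on day 1 and −0.85 on day 3, beside 0.06 and −0.07 over all genes. Hmgcs1, which makes the precursor of mevalonate, was lower in BM cells on both days (−1.57 ± 0.23 and −1.87 ± 0.26, edgeR adjusted p = 6.6e-06 and 0.0001). On day 7 none of the 20 was called by edgeR, with 1 at an unadjusted p under 0.05, and none was called in AM cells on any day against day 0, with 0 at an unadjusted p under 0.05. Of 13 tested LDL receptor family genes, 4 rose and 1 fell in BM cells on day 1. The sorting receptor gene Sorl1 was higher in BM cells on days 1, 3 and 7 (4.76 ± 0.33, 1.68 ± 0.33 and 3.93 ± 0.33, edgeR adjusted p = 7.8e-11, 0.0044 and 1.9e-08). Of 7 tested oxysterol genes other than Ch25h, 2 rose and 1 fell in BM cells on day 1, with Cyp27a1, the sterol 27-hydroxylase, at 43.1 CPM in BM and 3.26 CPM in AM cells (3.73 ± 0.87, edgeR adjusted p = 0.0021).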

How the data were processed

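RNA of resident alveolar and bone marrow-derived lung macrophages was sequenced from stranded, poly(A)-selected libraries, per the labels' protocols. The authors deposited raw counts per Ensembl gene; the submitters' processing notes list HISAT2 2.1.0 and featureCounts 2.0.0, with FastQC 0.11.9 and Trimmomatic 0.39, on GRCm38. Settings, annotation release and the strand used in counting are not given in the sources used here, so reads of antisense or overlapping genes may be shared or lost.

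Symbols came from GENCODE M21 for 55227 identifiers. The 26 libraries (7 groups, total counts 9176202 to 80816742) entered 1 model in edgeR 4.0.16 under R 4.3.3, with TMM scaling, filterByExpr at a minimum count of 10 and a robust quasi-likelihood F test, which left 17143 genes holding 99.92% of counts. SE is the log2 fold change divided by the square root of F, and 12 comparisons were tested, each adjusted by Benjamini-Hochberg over all genes tested. A count of 0 allows 3 counts; floors cover counting error only, since reads without molecular identifiers are not independent molecules. The code was tested on simulated data. Alternatives were DESeq2 1.42.0, its size factors, library size alone, other filters, the compared groups alone, replicate numbers as blocks, library number range and Y-linked level as terms, libraries left out one at a time, BM_day1.3 with BM_day3.1 left out, and all BM day 1 libraries left out. The fits within library numbers up to 24 or from 26 of the shared prefix were chosen after seeing the data.

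The members and lists were chosen with earlier results of these data known. Named beyond the members were the Apoe neighbours, the gene most like each member by Pearson r of log2(CPM + 1), and from each list up to 3 called genes of largest change with at least 5 CPM and no overlap, plus the most abundant one. Motifs were searched on both strands of RefSeq promoter windows of GRCm38.p6.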

Additional observations from a re-analysis of the deposited data

Results flagged for a closer look

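Mylip stood at 72.4 CPM in BM_day1.2, apart from the 21.2 to 35.5 CPM of the other BM day 1 libraries. It was the 1 library that stood apart among 32 gene and group sets screened with Dixon's test, where chance sets apart about 1 in 20. The groups of 3 libraries (AM day 0, AM day 3 and BM day 7) were not among these sets. AM_day3.2 and BM_day7.3 were therefore not screened. Without BM_day1.2 Mylip was called higher in BM day 3 than in BM day 1 (1.14, edgeR adjusted p = 0.029).

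The difference of Npc2 between BM and AM cells changed between days 1 and 3 by 1.26 on the log2 scale, by the interaction term of edgeR's quasi-likelihood test (adjusted p = 0.0066). BM cells held less Npc2 than AM cells on day 1 and about as much on day 3 (log2 fold changes of −1.25 and 0.01). When only the groups compared were fitted, the interaction was 1.11 and was not called (edgeR adjusted p = 0.079).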

How the results depend on the processing

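Of 96 member results, 28 were called by edgeR, 11 of them under every alternative tried, and no called result changed direction; of the 68 not called, 49 were called under no alternative. The cause of the changes that follow was not tested. Counts of members called moved as follows, with the fit of all libraries first. For BM against AM on day 3 the count was 3, but 0 with the compared groups alone and 1 with no filter, with the Y-linked covariate or with library numbers up to 24. For AM day 1 against day 0 it was 5, but 3 with number range as a term. For AM day 7 against day 0 it was 0, but 4 with the compared groups alone and 1 with DESeq2 or a stricter filter. For AM day 3 against day 1 it was 2, but 0 within either number range. For AM day 7 against day 3 it was 3, but 0 with numbers up to 24 and 1 with the Y-linked covariate. For BM day 7 against day 3 it was 1, but 0 with the compared groups alone or numbers up to 24, and 2 with DESeq2, with numbers from 26, without BM_day1.3 and BM_day3.1 or without the BM day 1 libraries. For the interaction with day 3 against day 1 it was 1, but 0 with the compared groups alone and 2 without BM_day1.3 and BM_day3.1, and for that with day 7 against day 3 it was 0, but 1 with DESeq2. Leaving out 1 library gave 1 to 3 for BM against AM on day 3, 2 to 6 for AM day 1 against day 0, 0 to 1 for AM day 7 against day 0, 0 to 2 for AM day 3 against day 1, 0 to 3 for AM day 7 against day 3, 2 to 5 for BM day 3 against day 1, 1 to 2 for BM day 7 against day 3, and 1 to 2 for the interaction with day 3 against day 1. Libraries of the same replicate number, taken over all groups and days, did not deviate together (r from −0.113 to 0.0928). Such correlations cannot show whether samples of 1 day came from the same animal. The BM day 1 libraries have description numbers that no other group has. With these numbers as a replicate block the BM day 1 level rests on 1 library, so calls lost there are no test of pairing. Those fits are among the alternatives counted above. With the title numbers as a block, 2 called results were lost. All genes called ranged over alternatives from 6 to 1838 for BM against AM on day 3 (683 with all libraries) and from 168 to 2948 on day 7 (303). For AM day 7 against day 0 all genes called went from 116 to 2578 with the compared groups alone and to 341 with DESeq2. For BM day 7 against day 3 they went from 683 to 41 and 1511 in the same settings. The Y-linked covariate took them from 272 to 100 for AM day 7 against day 3. For the interaction with day 7 against day 3 they went from 62 to 595 with DESeq2. The moves in member counts are to be read beside these. Scalings moved the median of all genes by under 0.1 on the log2 scale. Low counts kept Apoc2 out of the test. Within library numbers up to 24, AM day 3 and BM day 7 are 1 library each, so the spread comes from the other groups there and the counts of members called for comparisons with either group are not a test of that range.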
